A study of Mus musculus with 2 samples.

Results

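The genes described are 32 mouse genes of the endoplasmic reticulum (ER): chaperones and folding enzymes of its lumen, and the sensors, transcription factors, targets and degradation genes of the unfolded protein response (UPR). They were taken by gene symbol from the 32285 genes of the count tables, and all 32 were found. The study profiled colorectal tumours that azoxymethane (AOM) and dextran sulphate sodium (DSS) had induced in mice, by droplet single-cell RNA sequencing of 3′ ends. One library came from wild-type (WT) mice and one from mice labelled STK25 wKO, which the study describes as a global knockout of STK25, a serine/threonine kinase. Tumours of a group were pooled and dissociated with trypsin-EDTA before loading, and the design text names a sort on mCherry without saying what the fluorophore marks. Strain, age, the number of animals and the knockout allele are not given in the sources used here. Each group is 1 library of pooled tumours, so no difference between the libraries has a replicate check and no p-value is given.

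Proteins bound for secretion or for the cell surface fold in the ER, where chaperones hold them and disulphide isomerases join their cysteines. When unfolded protein builds up, the sensors IRE1 (Ern1, and Ern2 in mucosal epithelium), PERK (Eif2ak3) and ATF6 raise chaperone and degradation genes through the factors XBP1, ATF4 and cleaved ATF6. In the gut the response is best known from goblet and Paneth cells, which secrete mucin and antimicrobial peptides, and from plasma cells, which secrete antibody.

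Many UPR targets carry an ER stress response element (ERSE) before their start site, and these are shown because they are the sequence that members of the set share. The element searched was CCAAT and CCACG with any 9 bases between them, on both strands of the 250 bases before each RefSeq start (GRCm38.p6), in a table that held 27 of the 32 members. Hyou1, Manf, Ern2, Atf6 and Derl1 were not looked up elsewhere. The ERSE was found before 8 of the 27 members (Hspa5, Hsp90b1, Dnajc3, Calr, Canx, Pdia6, Creld2 and Syvn1) and before 0.130% of all 27025 genes in the table. Each is given with 15 bases on either side, on the strand that reads CCAAT first, with the element in capitals. Hsp90b1 had 2, both shown. The Hspa5 element lies before the RefSeq start but inside the longer span that Ensembl gives the gene, which starts at position 34771970.
Hspa5 (chr2:34772010-34772058, plus strand): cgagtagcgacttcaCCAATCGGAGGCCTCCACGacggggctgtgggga
Hsp90b1 (chr10:86705623-86705671, minus strand): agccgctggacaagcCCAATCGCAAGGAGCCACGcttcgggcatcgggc
Hsp90b1 (chr10:86705518-86705566, plus strand): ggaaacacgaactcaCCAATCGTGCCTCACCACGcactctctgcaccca
Dnajc3 (chr14:118937812-118937860, plus strand): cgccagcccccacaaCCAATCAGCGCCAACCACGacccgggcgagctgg
Calr (chr8:84847060-84847108, plus strand): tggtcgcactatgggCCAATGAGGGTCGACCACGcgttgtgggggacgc
Canx (chr11:50325785-50325833, minus strand): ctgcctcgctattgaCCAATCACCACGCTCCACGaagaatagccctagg
Pdia6 (chr12:17266476-17266524, plus strand): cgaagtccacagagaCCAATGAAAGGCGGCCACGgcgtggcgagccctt
Creld2 (chr15:88819505-88819553, minus strand): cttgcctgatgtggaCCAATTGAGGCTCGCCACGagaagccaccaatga
Syvn1 (chr19:6046517-6046565, plus strand): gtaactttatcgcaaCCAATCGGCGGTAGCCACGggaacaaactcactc

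The related ERSE-II, ATTGG and CCACG with any 1 base between them, was found before 1 member, Herpud1, and before 0.0370% of all genes. The C/EBP-ATF response element (CARE), read as TGATGNAA, was found before Chac1, Asns and Herpud1, 3 of 27 members, against 3.91% of all genes. The UPR element (UPRE) TGACGTGG was found before 0 of 27 members and 0.603% of all genes. The ERSE-II of Herpud1 and the CARE of each of the 3 genes are shown in capitals with 15 bases on either side.
Herpud1 (chr8:94386362-94386402, plus strand): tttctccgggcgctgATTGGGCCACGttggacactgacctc
Chac1 (chr2:119351034-119351071, minus strand): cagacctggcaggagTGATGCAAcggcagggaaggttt
Asns (chr6:7693210-7693247, minus strand): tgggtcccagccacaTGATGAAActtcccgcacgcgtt
Herpud1 (chr8:94386302-94386339, minus strand): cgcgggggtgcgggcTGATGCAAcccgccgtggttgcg
A match is a run of letters in this window and not evidence of a bound site. In plasma cells against B cells the 8 members with an ERSE had median log2 ratios of 1.38 and 1.20 in the 2 libraries, and the 16 others that could be compared had 1.5 and 1.71.

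There were 12542 barcodes and 38737373 UMIs (unique molecular identifiers, 1 per captured transcript) in the library labelled WT, and 14168 barcodes and 66297749 UMIs in that labelled STK25 wKO. The libraries shared 230 barcode sequences. Stk25 itself was at 118 and 127 UMIs per 1000000 UMIs of the library (CPM) over all cells, with a log2 ratio of 0.11 (0.05 to 0.16), and at 122 and 128 CPM in other epithelium, so the targeted gene was not lower in the library labelled STK25 wKO in either sum. Its log2 ratio was above 0, with an interval clear of 0, in secretory epithelium, 0.58 (0.27 to 0.90), fibroblasts, 0.76 (0.41 to 1.12), macrophages, 0.98 (0.32 to 1.71), neutrophils, 0.97 (0.02 to 2.12), endothelium, 0.44 (0.02 to 0.87), and pericytes or smooth muscle, 1.02 (0.08 to 2.06). The counts are per gene and say nothing of which part of Stk25 was deleted. They do not check the labels, and an exchange of the 2 labels, which would turn every direction between the libraries given below, cannot be told apart from labels that are right. Named epithelium other than secretory, tuft and enteroendocrine cells made 16.1% and 25.9% of cells. Cell types are names given to clusters by marker genes, plasma-cell-like and so on, with the ending left out below. Other epithelium is all named epithelium but secretory, tuft and enteroendocrine cells. A cluster led by Ly6d and Duoxa2, a cluster of haemoglobin-rich cells and a cluster of few UMIs stayed unnamed. All values below are given for the library labelled WT first and the library labelled STK25 wKO second, and intervals are 95%, exact, and cover counting error only.

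The 32 members took the largest share of UMIs in plasma cells among the 14 named cell types, 0.967% (0.920 to 1.02) and 0.923% (0.891 to 0.956), with 35 and 40 cells. Secretory epithelium followed with 0.586% (0.574 to 0.599) and 0.631% (0.623 to 0.639) from 274 and 529 cells. Fibroblasts had 0.401% and 0.485%, macrophages 0.411% and 0.445% and other epithelium 0.359% and 0.385%. Neutrophils had the smallest share, 0.240% and 0.220%, with an interval that overlapped that of pericytes or smooth muscle in the library labelled WT. The intervals of plasma cells and of secretory epithelium overlapped neither each other nor those of any other named type in either library. In plasma cells, immunoglobulin genes took 38.7 and 47.4% of all UMIs, which lowers the CPM of every other gene there.

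**Figure D1:**
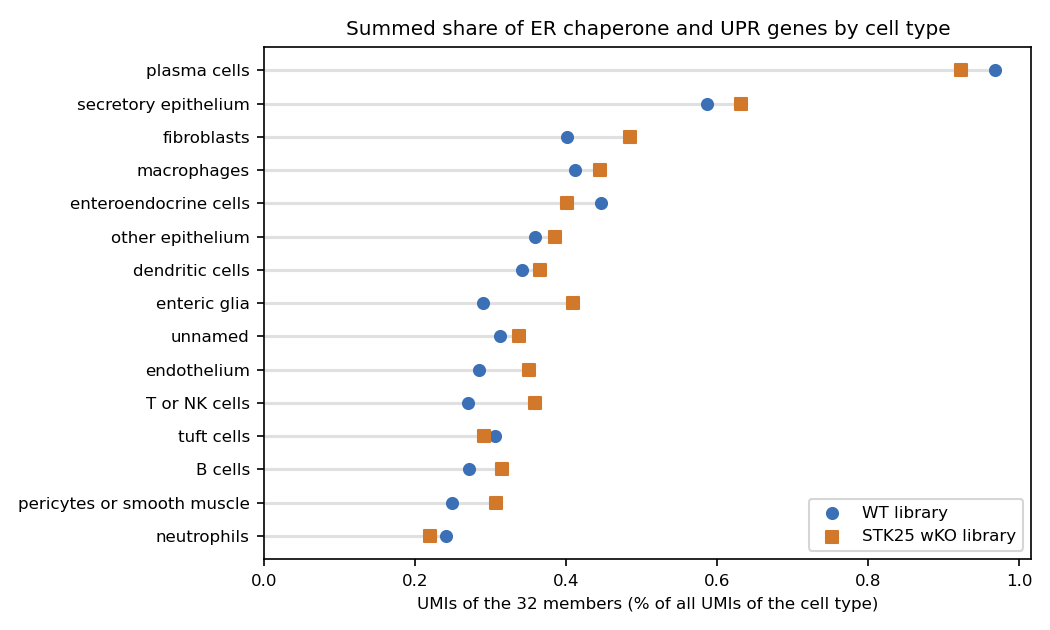
UMIs of the 32 members as a percentage of all UMIs (horizontal axis) in each cell type (vertical axis), as circles for the WT library and squares for the STK25 wKO library. Plasma cells lie at 0.967% and 0.923% and secretory epithelium at 0.586% and 0.631%, to the right of the other cell types.

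By single genes, 17 members in the WT library and 14 in the STK25 wKO library had their highest level in plasma cells, and 12 of them in both. The share of all genes highest in each cell type was not computed. The counts by highest cell type therefore describe the members alone and cannot be set against genes at large. For Hsp90b1, Pdia4, Creld2, Xbp1 and Edem1 the interval in plasma cells lay above that of the next cell type in both libraries. Secretory epithelium was highest for 7 and 6 members, 5 of them in both, and P4hb and Ern2 stood clear of the next cell type in both libraries. The order was different for the other members, of which 2 and 3 were highest in enteroendocrine cells and 2 and 1 in dendritic cells. Hspa5 was highest in enteroendocrine cells in the WT library, at 1001 CPM from 7 cells, with an interval that overlapped that of plasma cells. In the STK25 wKO library Hspa5 was highest in macrophages, at 785 CPM. That interval lay above that of the next type, secretory epithelium, at 572 CPM. Ddit3 (CHOP, a death-promoting factor of prolonged stress) was highest in neutrophils, at 43.7 and 55.1 CPM, with intervals that overlapped those of the next type. Trib3, a pseudokinase induced by ATF4 and CHOP, was highest in endothelium, at 10.7 and 10.5 CPM. Chac1, which degrades glutathione, was at or under 3.87 CPM in every named cell type of both libraries. Eif2ak3 was at 197 and 237 CPM in B cells, against 217 and 68.3 in plasma cells and 62.7 and 53.1 in T or NK cells.

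**Figure D2:**
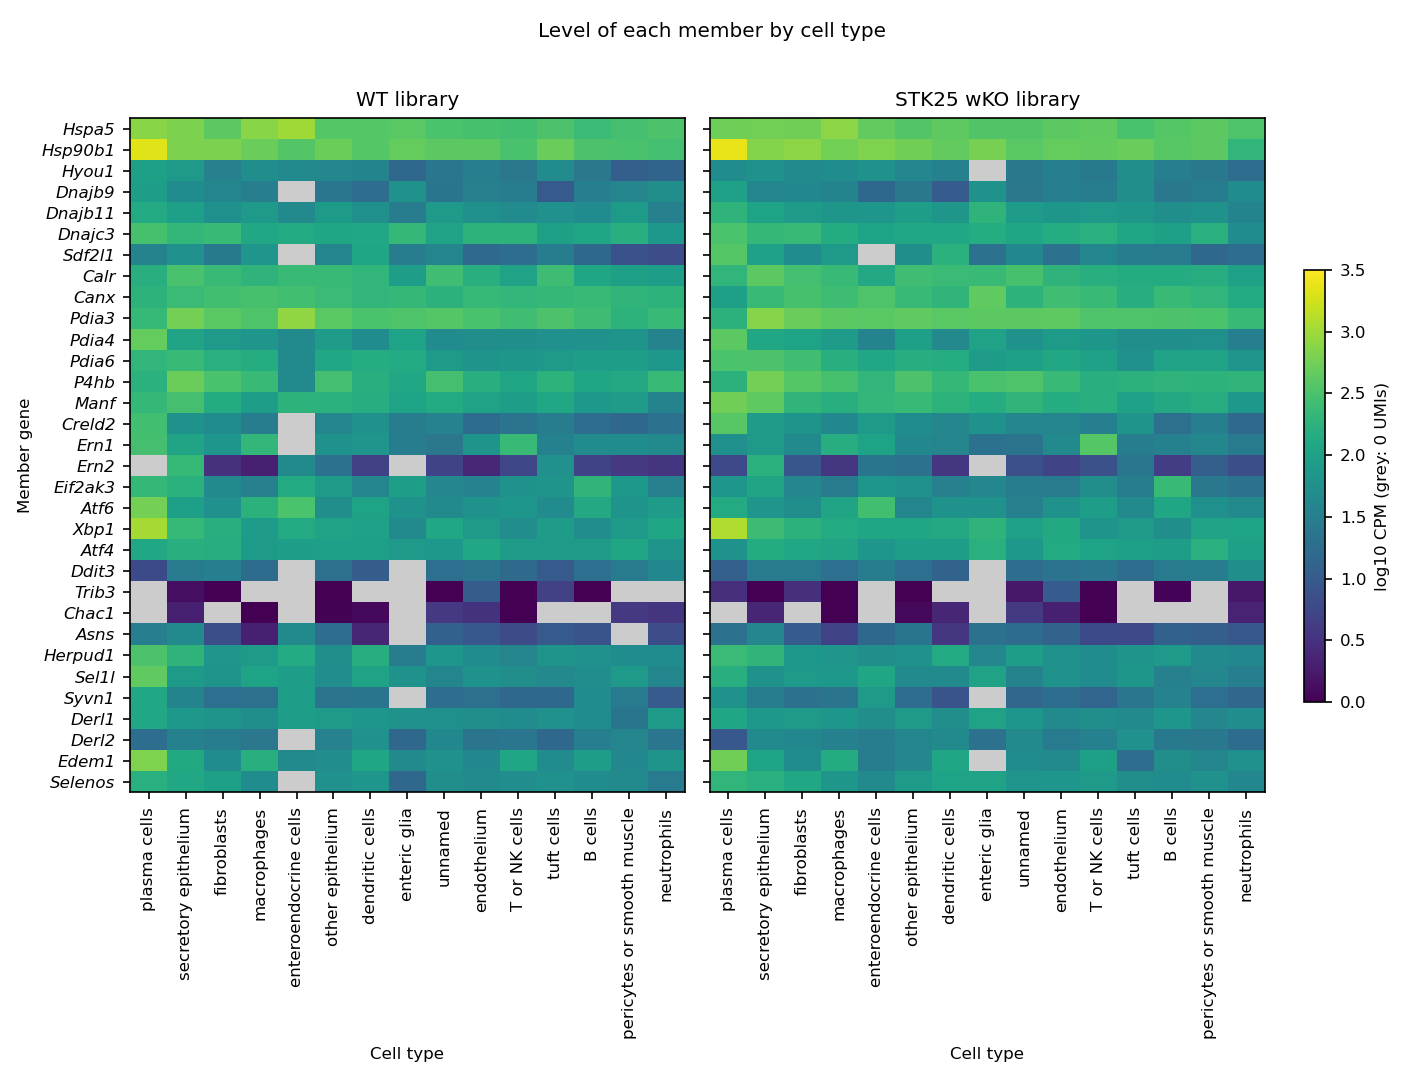
Level of each of the 32 members (rows) in each cell type (columns) as log10 CPM, for the WT library at the left and the STK25 wKO library at the right, with grey for 0 UMIs. Xbp1, Hsp90b1, Pdia4, Creld2 and Edem1 are brightest in the plasma cell column of both panels, and Chac1 and Trib3 are dark or grey throughout.

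Plasma cells derive from B cells, and the first comparison asked how the members' levels differed between these types in each library. Of the 28 members with at least 20 UMIs over both types in each library, 18 were at least 1.5-fold higher in plasma cells in both libraries, against 3.41% of the 7005 genes compared. Derl2 and Ddit3 were at least 1.5-fold lower in both, against 52.3% of genes. Neither call held with doublets removed, without mitochondrial, ribosomal, immunoglobulin and haemoglobin genes in the totals, or relative to genes of like span. Without those genes, 22 members were higher and 0 lower, against 8.60% and 22.1% of genes. Relative to span, 22 were likewise higher and 0 lower, against 12.6% and 15.05% of genes. The B-cell class was made of 2 clusters in unlike parts, 1487 and 451 cells of the cluster led by Bank1 and Ebf1 and 67 and 205 of that led by Cd79a and Cd79b. The median log2 ratio of the members was 1.5 and 1.20, and that of all genes −0.91 and −1.31.

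Among transcription factors, Xbp1, which the IRE1 branch activates and which plasma cells need in order to secrete, was at 1071 and 1209 CPM in plasma cells and 52.0 and 54.8 CPM in B cells, log2 ratios of 4.36 (3.99 to 4.75) and 4.46 (4.04 to 4.92). With each cell thinned to 1000 UMIs, 54.5% and 67.5% of plasma cells had an Xbp1 UMI, against 3.38% and 4.73% of B cells. Thinning left out 2 and 0 plasma cells and 843 and 212 B cells. Without thinning the shares were 85.7% and 97.5% of plasma cells and 5.15% and 6.86% of B cells. The median plasma cell had 3475 and 8328 UMIs, and the median B cell 961 and 1225. Atf4, the factor of the PERK branch, was at 124 and 62.4 CPM in plasma cells and 85.7 and 92.0 CPM in B cells, with log2 ratios of opposite sign and intervals that held 0. Ddit3 was at 6.19 and 11.9 CPM in plasma cells and 18.9 and 27.4 CPM in B cells.

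Of the luminal chaperones, 6 of 7 were at least 1.5-fold higher in plasma cells in both libraries, against 3.41% of genes. Hsp90b1 (GRP94), which folds immunoglobulin and integrins, was at 2136 and 2394 CPM against 334 and 391 CPM in B cells, log2 ratios of 2.68 (2.48 to 2.87) and 2.61 (2.43 to 2.80). Dnajc3 and Dnajb11, co-chaperones of BiP, were at 303 and 327 CPM and at 136 and 190.1 CPM in plasma cells. In B cells these were 113 and 98.6 CPM for Dnajc3 and 48.6 and 55.9 CPM for Dnajb11, so both genes lay higher in plasma cells in each library. Dnajb9, another BiP co-chaperone and a target of XBP1, had log2 ratios of 1.51 and 2.0, and Hyou1, an exchange factor of BiP, 2.01 (1.08 to 2.87) and 0.67 (−0.29 to 1.58). Sdf2l1 was at 37.1 and 383 CPM in plasma cells and 15.4 and 28.5 CPM in B cells, so that it was called in both libraries with ratios far apart, 1.27 (−0.30 to 2.57) and 3.75 (3.13 to 4.42). Hspa5 (BiP), the central chaperone of the lumen, missed the count: it was at 761 and 541 CPM in plasma cells and 245 and 377 CPM in B cells, log2 ratios of 1.64 (1.33 to 1.93) and 0.52 (0.25 to 0.78), under 1.5-fold in the second library.

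Folding enzymes divided. Pdia4, an isomerase found in antibody-folding complexes, was at 477 and 416 CPM in plasma cells and 60.6 and 54.8 CPM in B cells, log2 ratios of 2.98 (2.53 to 3.41) and 2.92 (2.45 to 3.42), and Pdia6 had 1.22 and 1.61. Pdia3, which works with the lectin chaperones on glycoproteins, was at 223 and 175 CPM in plasma cells and 255 and 331 CPM in B cells, and P4hb, the canonical isomerase, at 173 and 178 CPM in plasma cells and 116 and 192 CPM in B cells. Neither was higher in both libraries. The lectin chaperones were likewise not called: Calr had log2 ratios of 0.43 (−0.23 to 1.03) and 0.48 (0.04 to 0.92) and Canx −0.35 (−0.93 to 0.19) and −1.27 (−1.85 to −0.74). Both secreted ER-stress proteins were higher in both libraries, against 3.41% of genes. Creld2 was at 279 and 389 CPM in plasma cells and 18.3 and 19.7 CPM in B cells, log2 ratios of 3.93 (3.24 to 4.63) and 4.30 (3.59 to 5.10), and Manf, a secreted survival factor that binds BiP, had 1.54 (0.96 to 2.09) and 2.09 (1.75 to 2.44).

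The ER-associated degradation (ERAD) genes return misfolded protein to the cytosol. Of these, 6 of 7 were higher in plasma cells in both libraries, against 3.41% of genes. Edem1, a mannosidase-like lectin that marks glycoproteins for removal, was at 656 and 547 CPM against 92.0 and 53.7 CPM, and Sel1l, the scaffold of the ubiquitin ligase, at 439 and 160.4 against 52.6 and 34.0 CPM. Herpud1 had log2 ratios of 2.49 (1.99 to 2.98) and 1.65 (1.17 to 2.13) and Selenos 1.75 (1.07 to 2.39) and 2.07 (1.5 to 2.65). Syvn1, the ligase itself, had 1.33 and 0.79 and Derl1, a subunit of the export channel, 1.28 and 0.75. Derl2 was the exception at 18.6 and 8.91 CPM in plasma cells and 32 and 26.3 CPM in B cells, from few UMIs. For both members called lower the intervals held 0, as they did in 1 library for the called Hyou1, Sdf2l1, Ern1 and Syvn1. Of the sensors, Ern1 was called, at 291 and 56.4 CPM against 48.6 and 35.1 CPM, with log2 ratios of 2.58 (2.04 to 3.11) and 0.69 (−0.21 to 1.55). Atf6 was at 594 and 139.6 CPM in plasma cells and 128 and 115 in B cells, and Eif2ak3 had log2 ratios of 0.14 (−0.41 to 0.64) and −1.79 (−2.48 to −1.17), and neither was called in both libraries. Relative to genes of like span, the log2 ratios were 3.21 and 1.81 for Atf6 and 0.95 and −0.13 for Eif2ak3. Ern2, Trib3, Chac1 and Asns had too few UMIs to be counted.

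Among 75 further genes of ER folding, translocation and stress, 64 could be compared, of which 23 were higher and 10 lower in plasma cells in both libraries, against the 3.41% and 52.3% of all genes. The largest log2 ratios were those of Txndc5 (4.46 and 4.07), a disulphide isomerase, Edem2 (3.79 and 4.62) and the translocon subunit Ssr4 (2.19 and 3.07). The lowest were those of Agr2 (−3.66 and −2.32), Uggt1 (−1.22 and −1.18) and Stt3b (−1.01 and −2.28). Agr2, a goblet-cell isomerase, stood at 391.9 and 446 CPM in B cells against 6396 and 10135 in secretory epithelium, and what part of the B-cell value is free RNA was not tested. The comparison rests on 35 and 40 plasma cells. Under a stricter filter (500 genes or more, mitochondrial UMIs of 10% or less), 4 and 29 of them were left. With that filter 9 members were higher and 4 lower in both libraries, against 2.15% and 71.7% of genes.

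Secretory epithelium (goblet and Paneth-like cells by Muc2, Spink4, Lyz1 and defensin genes) was then compared with other epithelium. Of 31 members with enough UMIs, 19 were at least 1.5-fold higher in secretory cells in both libraries, against 8.75% of 14008 genes, and 0 were lower, against 16.7% of genes. The median log2 ratio of the members was 0.80 and 0.74, and that of all genes −0.15 and −0.16. All 4 sensors, both secreted proteins and both measured targets of the integrated stress response were among the 19. These are sums over the class, whose subclusters differed in Ern1, Eif2ak3 and Atf6, as given at the end.

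Ern2 (IRE1β), the sensor of mucin-secreting epithelium, had the largest ratio of the 31 in both libraries. It was at 224 and 173 CPM in secretory cells and 21.0 and 20.5 CPM in other epithelium, log2 ratios of 3.42 (3.19 to 3.64) and 3.07 (2.92 to 3.23). In B cells, which should lack it, it was at 5.14 and 4.38 CPM. At 1000 UMIs per cell, 18.7% and 20.6% of secretory cells had an Ern2 UMI, against 0.281% and 0.676% of B cells. Thinning left out 55 and 25 secretory cells, and without it the shares were 43.4% and 59.5%, against 0.579% and 0.610% of B cells. The median secretory cell had 2922.5 and 3636 UMIs. The other sensors differed less. Ern1 was at 112 and 76.0 CPM in secretory cells and 63.0 and 43.2 CPM in other epithelium, Eif2ak3 had log2 ratios of 1.08 (0.88 to 1.27) and 0.88 (0.73 to 1.02) and Atf6 0.81 (0.54 to 1.07) and 0.76 (0.57 to 0.95).

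Herpud1, an ERAD scaffold, was at 188 and 196 CPM in secretory cells and 54.5 and 62.9 CPM in other epithelium, log2 ratios of 1.79 (1.59 to 1.98) and 1.64 (1.52 to 1.76). Edem1 was at 135 and 106 CPM in secretory cells and 51.9 and 42.3 CPM in other epithelium, and Selenos at 121 and 165 CPM and 59.8 and 81.1 CPM in the same order. Syvn1 was the other ERAD gene called (0.74 and 0.73), so 4 of the 7 were higher in both libraries, against 8.75% of genes. Sel1l was past 1.5-fold in the first library only (0.66 and 0.42), and Derl1 and Derl2 lay near 0 (−0.07 and −0.08 for Derl1, −0.06 and 0.22 for Derl2). Xbp1 was at 223 and 252 CPM in secretory cells and 102 and 112 CPM in other epithelium, log2 ratios of 1.12 (0.95 to 1.29) and 1.16 (1.06 to 1.26). Atf4 had 0.73 (0.53 to 0.93) and 0.69 (0.56 to 0.81), and Ddit3 (0.54 and 0.61) missed the fold in the first library.

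Of the luminal chaperones, Hspa5 was at 654 and 572 CPM in secretory cells and 375 and 370.2 CPM in other epithelium, log2 ratios of 0.80 (0.70 to 0.90) and 0.63 (0.56 to 0.69). Dnajb9 (1.09 and 0.67) and Dnajc3 (0.88 and 0.78) were also called. Hyou1 (0.85 and 0.54) and Sdf2l1 (0.55 and 0.86), a partner of DNAJB proteins, passed in a single library each. Hsp90b1, which stood apart in plasma cells, had 0.33 (0.24 to 0.43) and 0.37 (0.31 to 0.42) here, and Dnajb11 0.23 (−0.03 to 0.48) and 0.24 (0.10 to 0.39). Pdia6 was at 226 and 334 CPM in secretory cells and 120.1 and 152 CPM in other epithelium, and P4hb at 516 and 596 CPM and 285 and 336 CPM in the same order, both called. Pdia3 (0.52 and 0.74) and Calr (0.42 and 0.63) passed in the second library only, while Pdia4 (0.37 and 0.38) and Canx (−0.02 and −0.06) passed in neither. Manf had 0.77 (0.62 to 0.92) and 0.84 (0.77 to 0.92) and Creld2 0.61 (0.28 to 0.92) and 0.72 (0.55 to 0.89). Asns, which makes asparagine and is induced by ATF4, was at 46.2 and 41.5 CPM in secretory cells and 18.3 and 22.6 CPM in other epithelium, and Chac1 had intervals that held 0 (0.93 (−1.49 to 2.72) and 0.98 (−0.19 to 2.01)). Trib3 was at 1.34 and 0.235 CPM in secretory cells and 0.745 and 0.940 CPM in other epithelium and was not counted.

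Of the 75 further genes, 74 were compared, and 30 were higher and 2 lower in both libraries, against 8.75% and 16.7% of all genes. Agr2 (4.93 and 4.59), Fkbp11 (3.78 and 3.57), a prolyl isomerase, and the membrane-bound factor Creb3l4 (3.65 and 3.66) had the largest log2 ratios. Phgdh (−1.53 and −1.11), Shmt2 (−1.13 and −0.50), both of serine and glycine synthesis, and Creb3l2 (−0.33 and −0.52) had the lowest. Genes known to be induced by dissociation summed to 5767 and 4032 CPM in secretory and 4374 and 3739 CPM in other epithelium, and 1 of 12 was higher in both libraries. At 2-fold in place of 1.5-fold, 5 members were higher, against 4.36% of genes.

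Fibroblasts secrete matrix, and the levels of the members in them were compared with other epithelium too. Of 30 members, 5 were at least 1.5-fold higher in both libraries (Dnajb9, Dnajc3, Xbp1, Ddit3 and Selenos), against 20.7% of 14609 genes, and Ern2 and Asns were lower, against 27.1%. Both shares of the members are below those of all genes, and the median log2 ratio was 0.11 and 0.24, against −0.27 and −0.13 for all genes. Dnajc3 was at 231 and 236 CPM in fibroblasts and 114 and 123 CPM in other epithelium, log2 ratios of 1.02 (0.87 to 1.18) and 0.94 (0.81 to 1.06). Xbp1 was at 159 and 178 CPM in fibroblasts, with ratios of 0.63 (0.45 to 0.81) and 0.67 (0.52 to 0.80), and Selenos at 96.4 and 124 CPM, with 0.69 (0.45 to 0.92) and 0.61 (0.44 to 0.78). Dnajb9 had 0.79 and 0.76 and Ddit3 0.71 and 0.60, so the 5 called had ratios between 0.60 and 1.02.

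Ern2 was at 3.2 and 8.69 CPM in fibroblasts and 5.14 and 4.38 CPM in B cells, with overlapping intervals, and Asns at 6.93 and 10.6 CPM. Hspa5 (0.15 and 0.56), Pdia6 (0.49 and 0.80), Hsp90b1 (0.31 and 0.47), Sel1l (0.33 and 0.75) and Atf4 (0.66 and 0.49) lay above 0 in both libraries without passing in both. Eif2ak3 (−0.80 and −0.53), Manf (−0.30 and −0.26), Dnajb11 (−0.49 and −0.08) and Sdf2l1 (−0.64 and −0.12) lay below 0 in both. The remaining tested members, among them Calr (0.03 and 0.10), Canx (0.15 and 0.38), Pdia3 (−0.03 and 0.21), P4hb (0.11 and 0.16), Creld2 (0.26 and 0.39) and Edem1 (−0.02 and 0.25), lay between −0.32 and 0.41. Trib3 and Chac1 were not counted.

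Of the 75 further genes, 73 were compared, and 14 (19.2%) were higher and 8 (10.96%) lower in fibroblasts, against 20.7% and 27.1% of all genes. Atf5 (3.22 and 3.18), Cebpb (2.46 and 2.34) and Creb3l2 (1.36 and 1.55), all bZIP factors, had the largest log2 ratios, and Ddit4 (−2.10 and −1.78), Sec11c (−1.57 and −1.52) and Rnf5 (−1.35 and −1.14) the lowest. Dissociation-induced genes summed to 11535 and 10771 CPM in fibroblasts, against 4374 and 3739 CPM in other epithelium, and 10 of 12 were at least 1.5-fold higher in both libraries. Their part in the values of Ddit3, Atf4 and Xbp1 was not tested. Without the epithelial cluster led by mitochondrial genes, 2 members in place of 5 were higher in both libraries, against 20.7% of genes.

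**Figure D3:**
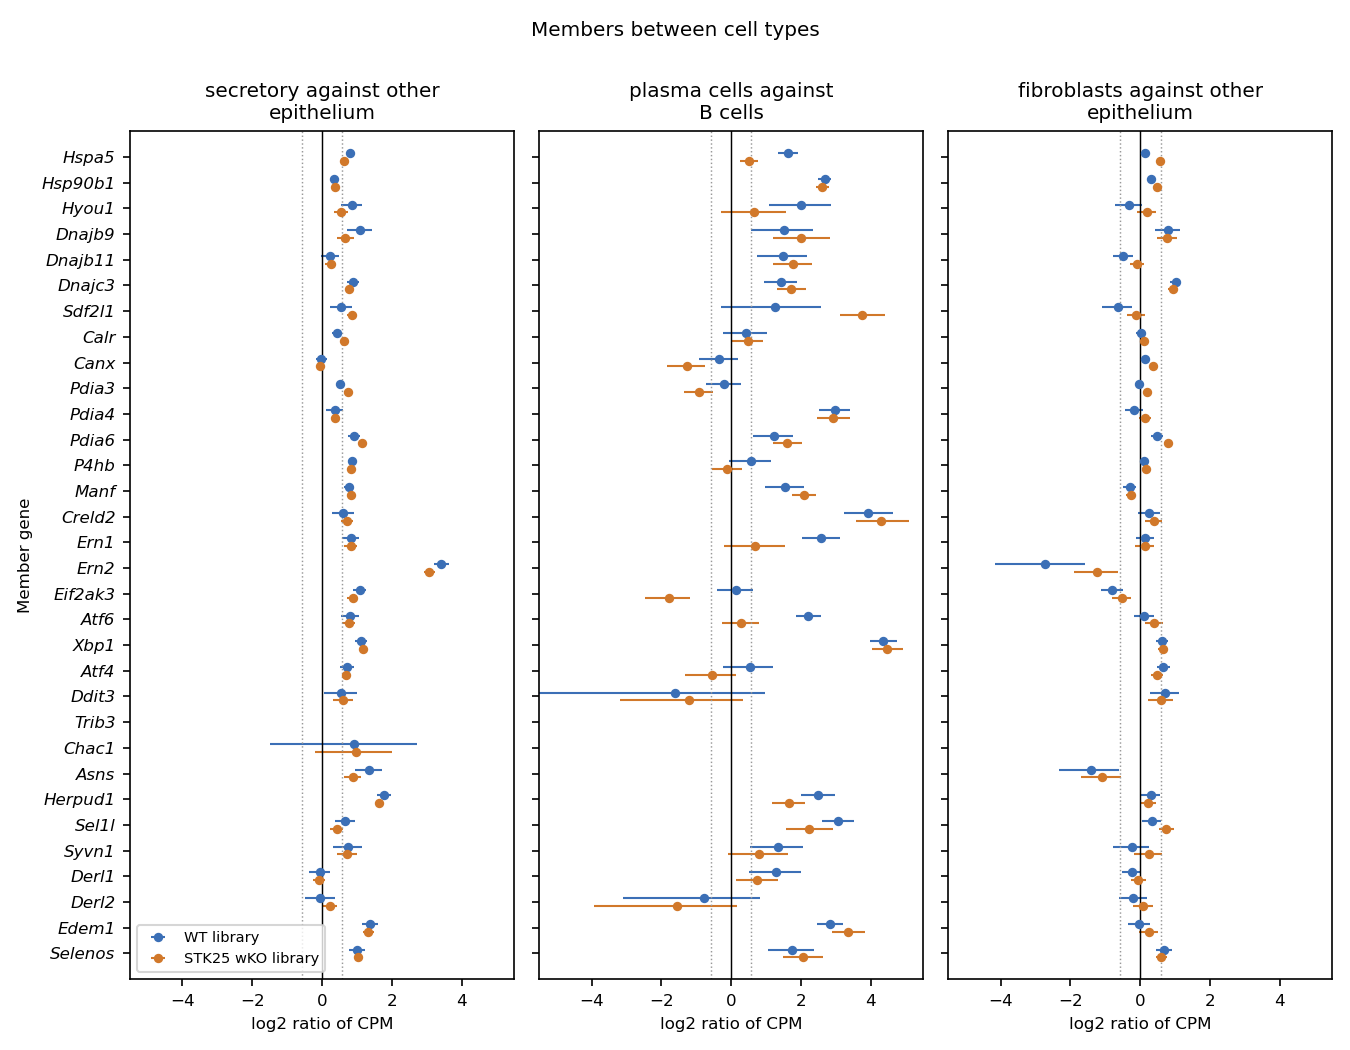
Log2 ratio of CPM (horizontal axis) for each member (vertical axis) between secretory and other epithelium, plasma cells and B cells, and fibroblasts and other epithelium, as points with 95% counting intervals for the WT library (blue) and the STK25 wKO library (orange). Dotted lines mark 1.5-fold, intervals are clipped at the axis, and members with too few UMIs are left out. Xbp1 at 4.36 and 4.46 and Creld2 at 3.93 and 4.30 lie furthest right in the middle panel, and Ern2 at 3.42 and 3.07 in the left panel.

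The study compared genotypes, and each cell type was compared between the libraries. In other epithelium 0 of 32 members were at least 1.5-fold higher in the library labelled STK25 wKO, against 5.71% of 16032 genes, and 0 were lower, against 15.6%. No test was possible with 1 library a group. The median log2 ratio of the members was 0.12, and that of all genes −0.16. Manf was at 172 and 237 CPM, with a log2 ratio of 0.46 (0.40 to 0.52), Sdf2l1 at 40.7 and 55.6 CPM, 0.45 (0.32 to 0.58), and Selenos at 59.8 and 81.1 CPM, 0.44 (0.33 to 0.55). These had the highest ratios, all under 1.5-fold. Ern1 had the lowest, −0.55 (−0.66 to −0.43) at 63.0 and 43.2 CPM, followed by Atf6, −0.43 (−0.55 to −0.30), and Eif2ak3, −0.42 (−0.52 to −0.32). Hspa5 was at 375 and 370.2 CPM, with a log2 ratio of −0.02 (−0.06 to 0.03), and Atf4 and Ddit3 had −0.10 and −0.08. The ATF4 targets Asns (0.31 (0.11 to 0.51)), Chac1 (0.17 (−0.69 to 1.09)) and Trib3 (0.33 (−0.67 to 1.44)) lay within 1.5-fold as well.

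The members' median log2 ratio in the epithelial clusters was 0.06 in that led by Nkd1 and Wif1, 0.08 in that led by mitochondrial genes, 0.30 in that led by Htr4 and Cftr, −0.05 in that led by Car1 and Aqp8 and −0.03 in that led by Psca and Sprr2d. In the cluster led by Htr4 and Cftr, Manf was at 123 and 265 CPM, Sdf2l1 at 31.3 and 71.2 CPM and Hsp90b1 at 532 and 722 CPM. In the cluster led by Psca and Sprr2d, Manf was at 268 and 276 CPM, Sdf2l1 at 59.0 and 67.2 CPM and Hsp90b1 at 614 and 566 CPM. In the cluster led by Nkd1 and Wif1, targets of Wnt signalling, Manf was at 181 and 249.3 CPM, Sdf2l1 at 42.9 and 46.5 CPM and Hsp90b1 at 521 and 539 CPM. Whether the clusters differ in this was not tested.

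In secretory epithelium, 1 of 30 members was at least 1.5-fold higher, against 11.5% of genes, and 1 was lower, against 21.1%. The first was Sdf2l1, at 59.6 and 101 CPM, with a log2 ratio of 0.76 (0.42 to 1.10), and the second Eif2ak3, at 171 and 111 CPM, −0.62 (−0.84 to −0.40). Pdia6 (0.56 (0.39 to 0.73)) and Manf (0.53 (0.38 to 0.69)) came next on the higher side, and Ern1 (−0.56 (−0.83 to −0.28)) and Atf6 (−0.47 (−0.77 to −0.17)) on the lower. Ern2 was at 224 and 173 CPM, −0.38 (−0.57 to −0.19), and Hspa5 at 654 and 572 CPM, −0.19 (−0.30 to −0.09). The members' median was 0.02, and that of all genes −0.15. Dissociation-induced genes were lower in 7 of 12, at 5767 and 4032 CPM in sum, and their part was not tested.

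In fibroblasts, 4 of 30 members were at least 1.5-fold higher, against 11.6% of genes, and 0 were lower, against 8.53%. Sdf2l1 was at 26.1 and 51.0 CPM, with a log2 ratio of 0.97 (0.49 to 1.47), and Pdia6 at 168 and 265 CPM, 0.65 (0.46 to 0.85). The other two, Ern2 (1.44 (0.11 to 3.03)) and Asns (0.61 (−0.38 to 1.68)), were at 3.2 and 8.69 CPM and 6.93 and 10.6 CPM, and Ern2 is near its level in B cells. The members' median was 0.27 against 0.02 for all genes. Of the 30 members 24 lay above 0, as did 6292 of 12111 genes. Relative to genes of like span the members' median was 0.17, and Hspa5 lay at 0.19. Hspa5 was at 415 and 544 CPM, 0.39 (0.26 to 0.52), Dnajb11 at 57.5 and 84.7 CPM, 0.56 (0.22 to 0.90), and Pdia4 at 75.1 and 108 CPM, 0.52 (0.22 to 0.82), so these chaperones were higher by less than 1.5-fold. Both fibroblast clusters had medians above 0, at 0.32 in the cluster led by Dcn and C3 and 0.21 in the cluster led by Adamdec1 and Postn. Stk25 was at 51.1 and 86.6 CPM in fibroblasts, higher in the library labelled STK25 wKO.

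In plasma cells, 3 of 26 members were at least 1.5-fold higher, against 25.4% of genes, and 8 were lower, against 44.4%. Sdf2l1 had the largest ratio, 3.37 (2.21 to 4.84), from 6 UMIs in 5 of 35 cells and 129 UMIs in 32 of 40 cells, with 12 in the highest cell. Manf was at 217 and 555 CPM, 1.36 (0.83 to 1.92), and Pdia6 at 204 and 321 CPM, 0.65 (0.08 to 1.26). The lower members were Ern1 (−2.37 (−3.22 to −1.57)), Atf6 (−2.09 (−2.63 to −1.57)), Eif2ak3 (−1.67 (−2.49 to −0.87)), Sel1l (−1.45 (−1.99 to −0.92)), Atf4 (−0.99 (−1.94 to −0.03)), Syvn1 (−0.99 (−1.94 to −0.03)), Hyou1 (−0.97 (−2.05 to 0.11)) and Canx (−0.92 (−1.68 to −0.16)). Xbp1 (0.17 (−0.09 to 0.44)), Hsp90b1 (0.16 (−0.02 to 0.35)), Pdia4 (−0.20 (−0.61 to 0.22)) and Creld2 (0.48 (−0.02 to 1.00)), which stood apart in plasma cells, had intervals that held 0. Dissociation-induced genes were higher in 2 of 12 and lower in 6, at 7087 and 4227 CPM in sum, and their part was not tested. These calls rest on few cells: 18 members were higher and 1 lower where the stricter filter left 4 and 29 plasma cells, against 51.8% and 8.25% of genes. There was 1 higher and 14 lower where removing the cells with the highest doublet scores left 35 and 8, against 16.2% and 45.6%.

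**Figure D4:**
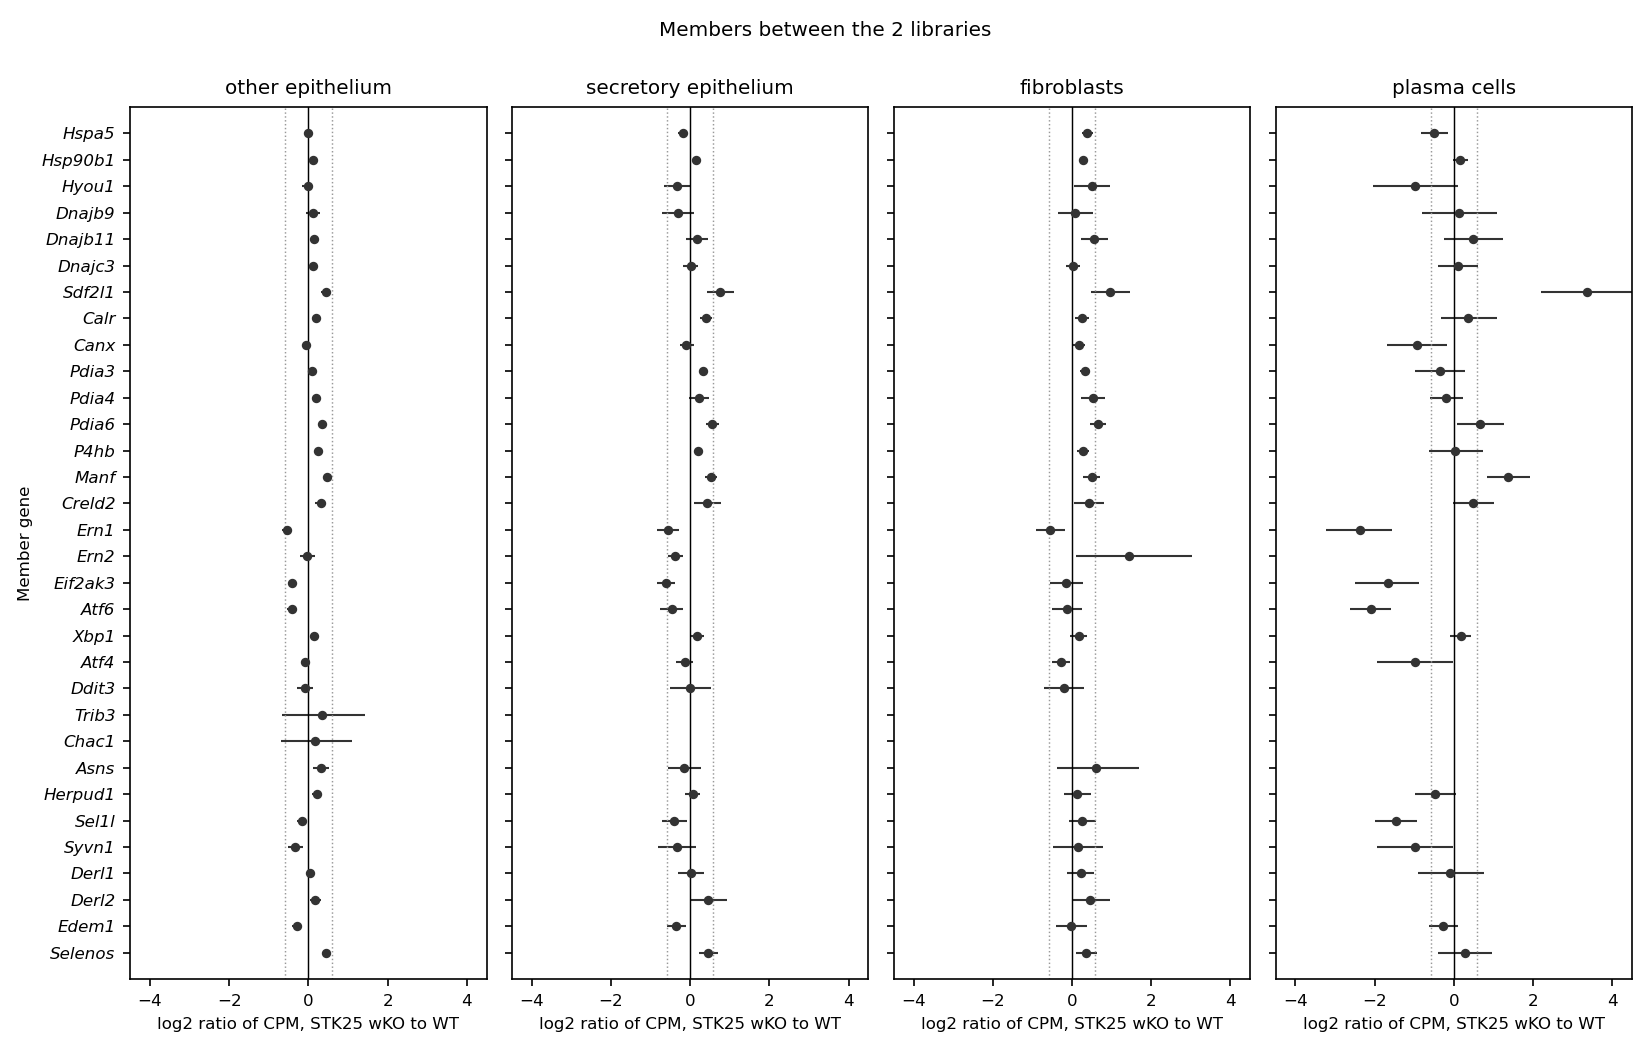
Log2 ratio of CPM in the STK25 wKO library to CPM in the WT library (horizontal axis) for each member (vertical axis) in 4 cell types, with 95% counting intervals, dotted lines at 1.5-fold and intervals clipped at the axis. In other epithelium all 32 members lie within 1.5-fold, and in plasma cells Sdf2l1 lies at 3.37 and Ern1 at −2.37.

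All 75 further genes were compared in other epithelium, and 5 were higher and 0 lower, against 5.71% and 15.6% of all genes. In secretory epithelium 8 of 73 were higher and 4 lower, against 11.5% and 21.1%, in fibroblasts 3 of 72 and 2, against 11.6% and 8.53%, and in plasma cells 17 of 52 and 14, against 25.4% and 44.4%. In other epithelium Agr2 was at 211 and 421 CPM, Ssr4 at 286 and 439 CPM and Slc7a11, the cystine transporter, at 20.5 and 31.3 CPM, while Ppp1r15a (−0.56), Edem3 (−0.53) and Dnajc1 (−0.46) had the lowest log2 ratios. Agr2 also stood at 167 and 370 CPM in endothelium, which should lack it. In secretory cells Dad1 (0.77), Ssr2 (0.74) and Sec61b (0.72) were highest, and Edem3 (−0.96), Ppp1r15a (−0.61) and Dnajc1 (−0.60) lowest. Fibroblasts had Ddit4 (0.68), Rnf5 (0.55) and Spcs1 (0.53) at the top and Ero1lb (−1.21), Phgdh (−0.53) and Vldlr (−0.46) at the bottom. In plasma cells the ends were Fkbp11 (4.70), Sec61b (1.58) and Ppib (1.45), and Creb3l2 (−2.29), Edem3 (−2.19) and Txndc11 (−1.42). Fkbp11 was at 6.19 and 160 CPM there, so its ratio had a wide interval, 2.16 to 10.0.

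Some members leaned the same way in most cell types. Over the 10 cell types with at least 50 cells in each library, Manf lay above 0 in 10, with the interval above 0 in 9, and Calr lay above 0 in 10, with the interval above 0 in 6. Sdf2l1 lay above 0 in the 9 in which it could be compared, and Hsp90b1, Pdia3, Pdia6, P4hb, Xbp1 and Selenos in 9 of 10. For Hsp90b1 the exception was neutrophils, at 286 and 199 CPM, a class not made of the same clusters in the 2 libraries. Ern1, Eif2ak3, Atf6 and Sel1l lay below 0 in 9 of 10, and Edem1 in 8 of 10. The cell types share their libraries, so these counts are not repeats of one another. They were not made over all genes, so no share of all genes stands beside them.

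Ern1, Eif2ak3, Atf6, Sel1l and Edem1, which leaned lower, are among the longer members. Longer genes also had lower median ratios over all genes. Ern1 spans 93.2 kb, Eif2ak3 60.7 kb, Atf6 163 kb, Sel1l 43.1 kb and Edem1 30.7 kb, against 2.25 kb for Sdf2l1 and 5.08 kb for Calr. Manf, at 53.7 kb as annotated and overlapping Rbm15b on the same strand, leaned the other way. Among short members, Dnajb9 (4.77 kb) lay below 0 in 7 of 10 cell types and Syvn1 (7.14 kb) in 6 of 9. Dnajc3 (43.7 kb) and Canx (31.7 kb) each lay below 0 in 5 of 10. Over all genes in other epithelium, the median log2 ratio was 0.12 in the shortest of 4 equal bins by span and −0.43 in the longest, and in plasma cells 0.66 and −1.47. In every cell type with enough cells for the counts above, the median was above 0 in the shortest bin and below 0 in the longest. Genes of 100 kb or more took 15.8 and 11.1% of the UMIs of other epithelium and 14.1 and 6.15% of those of plasma cells, and Malat1, a nuclear RNA, was at 10635 and 6879 CPM in the former and 16205 and 7167 CPM in the latter. The part of this shift in the members' ratios was not tested. With each ratio taken relative to the median of genes of like span, Ern1 in other epithelium lay at −0.13, Atf6 at 0.09, Eif2ak3 at −0.11 and Manf at 0.77. On that scale Manf was the 1 member called higher there, against 7.15% of genes, and 0 were lower, against 8.81%. Before, Manf had 0.46 in other epithelium, 0.53 in secretory epithelium and 0.50 in fibroblasts, all under 1.5-fold. Its calls in these types on that scale rest on the annotated 53.7 kb. Shorter genes had higher medians, and a shorter span for Manf was not tried. Pdia6 and Manf were called higher and Syvn1 lower in secretory epithelium, against 10.7% and 12.3% of genes. In fibroblasts Sdf2l1, Manf and Ern2 were higher and Pdia6 (0.55) and Asns (0.51) no longer so, and 0 were lower, against 9.99% and 8.69%. In plasma cells 5 members were higher, against 25.1% of genes, namely Dnajb11, Dnajc3, Sdf2l1, Pdia6 and Manf. There Atf6 (−0.49) and Canx were no longer among the 8 lower, against 26.8% of genes, while Ern1 (−1.06), Eif2ak3 (−0.80) and, newly, Hspa5 (−1.16) and Herpud1 (−1.04) were.

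**Figure D5:**
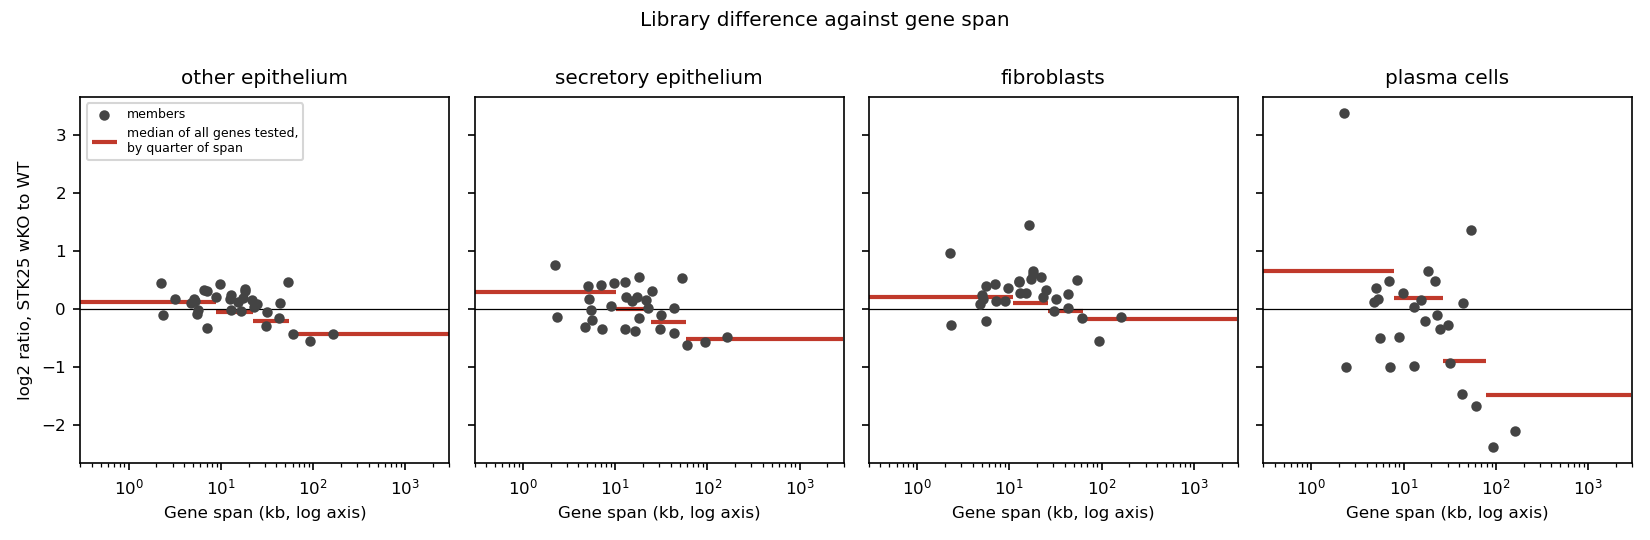
Log2 ratio of the STK25 wKO library to the WT library (vertical axis) against gene span in kb (horizontal log axis) in 4 cell types, with points for members and red lines for the median of all genes tested in each of 4 equal bins of span. The red lines are lower for the longest than for the shortest genes in each panel, from 0.12 to −0.43 in other epithelium and from 0.66 to −1.47 in plasma cells.

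Among immune cells, T or NK cells had 7 of 30 members at least 1.5-fold higher, against 16.6% of genes, and 0 lower, against 18.2%. Sdf2l1 was at 18.5 and 40.3 CPM, Manf at 91.5 and 159.7, Hspa5 at 274 and 443 and Ern1 at 234 and 374 CPM, where Ern1 had a log2 ratio of 0.68 (0.56 to 0.79). The class held different clusters in the 2 libraries. The cluster led by Il17a, Tnfrsf9, Ctla4 and Icos, genes of activated and IL-17-producing T cells, had 915 and 1076 cells, and of those led by Gm2682 and Skap1 one had 1810 and 141 cells and the other 1069 and 29 cells. Within the Il17a-led cluster, Ern1 was at 593 and 451 CPM, with a log2 ratio of −0.39 (−0.52 to −0.27), and within the cluster led by Ccl5, Xcl1 and Gzma at 300.4 and 188 CPM, with a log2 ratio of −0.67 (−1.11 to −0.23). In the Gm2682-led clusters it was at 64.7 and 85.9 CPM, with a log2 ratio of 0.41 (−0.36 to 1.10), and 61.3 and 126 CPM, with a log2 ratio of 1.04 (−0.31 to 2.13). So Ern1 was lower, not higher, in the library labelled STK25 wKO within the clusters where its level was highest. Dissociation-induced genes were at least 1.5-fold higher in 8 of 12 in T or NK cells, at 5851 and 8041 CPM in sum, and their part in the other members' ratios was not tested.

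The other types are given as values. Macrophages had Hspa5 at 753 and 785 CPM, Xbp1 at 86.5 and 140.0 CPM, Manf at 90.6 and 155 CPM and Atf6 at 177 and 109.7 CPM. In neutrophils Manf was at 37.0 and 74.0 CPM, Sdf2l1 at 6.72 and 18.6 CPM and Hsp90b1 at 286 and 199 CPM. A neutrophil cluster led by Retnlg and Ngp held 0 and 409 cells, so the class was not made of the same clusters in both libraries. In the neutrophil cluster found in both, led by Acod1 and Hdc, the members' median log2 ratio was 0.09, and that of all genes 0.07. Over the class both medians were −0.15. Endothelium had Creld2 at 17.2 and 39.3 CPM and Pdia6 at 65.7 and 122 CPM, and B cells, whose 2 clusters were in unlike parts in the libraries, Hspa5 at 245 and 377 CPM and Manf at 74.3 and 130.4 CPM. Tuft cells, enteroendocrine cells and enteric glia held from 7 to 42 cells in a library, too few for most members of enteroendocrine cells and glia.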

How the data were processed

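The values the authors deposited are unnormalised UMI counts, 1 matrix for each of 2 libraries of pooled tumours, made with Cell Ranger 7.1.0 on mouse genome mm10 per the file headers and labels. The labels also name Seurat. The sources used here do not say whether intronic reads were counted. Barcodes under 200 genes or above 25% mitochondrial UMIs were removed, leaving 12270 and 13883 cells. Log values per 10000 UMIs of 2000 variable genes, members and related genes left out, were reduced to 30 components, joined by 20 neighbours and clustered (Leiden, resolution 1). Names came from the best-scoring marker set, where 3 or more of its markers were each found in 10% or more of the cells and lay 5 points over the median cluster. A cluster stayed unnamed if markers of a different set were more frequent among its 10 leading genes. Doublets were not removed.

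UMIs were summed per gene, cell type and library and given as CPM. Intervals are exact Poisson for levels and conditional binomial for ratios. Genes with fewer than 20 UMIs over the groups compared were not counted, and a call needed 1.5-fold, for cell types in both libraries. With 1 library a group no test was run. All 32 members are named, and of 75 further genes the 3 largest log2 ratios in each direction among those with at least 50 UMIs over both groups and 20 CPM in 1. The 12 dissociation-induced genes were a further list. Members, lists and rules were chosen with earlier results of these data known. Alternatives were other cell filters, resolutions of 0.5 and 2, doublet removal by score, cells weighted equally, thinning to 1000 UMIs per cell, other UMI minimums, CPM without mitochondrial, ribosomal, immunoglobulin and haemoglobin genes, and 2-fold. Added after seeing the data were ratios relative to genes of like span, the Ly6d- and Duoxa2-led cluster counted as other epithelium, and the epithelial cluster led by mitochondrial genes left out. Only the ratios between the libraries were tested on simulated counts, for other epithelium, secretory epithelium, fibroblasts and plasma cells. Those counts were drawn with counting error alone. Clustering, naming and the remaining steps were not tested in this way. Sequences are RefSeq promoters (GRCm38.p6), 250 bases before to 50 after each start, of which only the bases before were used. Gene spans are GRCm38. The software was scanpy 1.11.5, pandas 2.3.3, scipy 1.17.1, numpy 2.4.6 and Python 3.11.15, with scikit-learn 1.9.0, igraph 0.11.9, leidenalg 0.10.2 and matplotlib 3.10.9.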

Additional observations from a re-analysis of the deposited data

Results flagged for a closer look

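Ern1, which encodes the sensor IRE1α, was past 1.5-fold in opposite directions in different cell types, with intervals clear of 0. Its log2 ratio of the library labelled STK25 wKO to the library labelled WT was 0.68 in T or NK cells, −2.37 in plasma cells and −0.79 in dendritic cells. Within the 2 T or NK clusters where its level was highest, the ratio was −0.39 and −0.67. Ern1 spans 93.2 kb. The longest of 4 equal bins of all genes by span had medians of −0.36 in T or NK cells, −1.47 in plasma cells and −0.61 in dendritic cells. Relative to genes of like span, Ern1 lay at −1.06 in plasma cells. The part of span was not tested. The difference between the cell types was not tested either, since each group is 1 library.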

How the results depend on the processing

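Over all results and alternatives, 231 values stayed within the tolerance and 53 did not. The 231 include values that an alternative could not move. Moving or leaving out an epithelial cluster, for example, did not touch plasma cells, B cells, secretory epithelium or fibroblasts. The tolerance was 1.5 times for a count, and for a median the median of the members' counting intervals. It takes in falls from 19 to 13 members higher in secretory epithelium with cells weighted equally, and from 18 to 14 with doublets removed and to 12 with thinning in plasma cells against B cells. The shares of all genes higher in these settings were 7.66%, 2.86% and 3.88%, in the same order. The plasma median between the libraries, −0.15, turned to 1.10 under the stricter filter, 0.11 with at least 100 UMIs and 0.18 without mitochondrial, ribosomal, immunoglobulin and haemoglobin genes, and that of secretory epithelium to −0.02 at a resolution of 0.5. At 2-fold, 5 members were higher in secretory epithelium and 0 in fibroblasts against other epithelium, against 4.36% and 15.7% of genes. Between the libraries 0 were higher and 0 lower in secretory epithelium, against 3.42% and 5.21%. In fibroblasts 1 was higher, against 4.18%, and in plasma cells 4 were lower, against 34.2%. Under the filter of 500 genes or more and mitochondrial UMIs of 10% or less, 4 and 29 plasma cells were left. The median against B cells was 0.20 in the library labelled WT with 9 members higher, against 2.15% of genes. Between the libraries the plasma median was 1.10, the opposite sign, with 18 higher and 1 lower, against 51.8% and 8.25%. In secretory epithelium 2 members were lower, against 22.5%, and in fibroblasts 1 was, against 9.28%. Scrublet's own threshold marked 0 cells, so the 1204 and 1542 cells with the highest scores were removed, which left 35 and 8 plasma cells. The plasma median against B cells was then 0.58 in the library labelled STK25 wKO. Between the libraries the plasma median was −0.82 with 1 higher and 14 lower, against 16.2% and 45.6% of genes. In secretory epithelium 0 were lower, against 17.7%. Without mitochondrial, ribosomal, immunoglobulin and haemoglobin genes the plasma medians against B cells were 2.14 and 2.10. In fibroblasts against other epithelium 2 members were higher, against 19.9% of genes. Between the libraries 7 were higher in plasma cells, against 30.6%, and 2 higher and 0 lower in secretory epithelium, against 13.6% and 18.3%. With at least 100 UMIs, 11 members were higher in plasma cells than in B cells, against 4.06% of genes. Between the libraries 2 were lower in plasma cells, against 27.4%, and 2 higher in fibroblasts, against 7.03%. With no minimum and 1 CPM added, 6 were higher in plasma cells, against 33.2% of genes, and 2 lower in secretory epithelium, against 23.0%. With cells weighted equally, the fibroblast median was 0.29 in the library labelled WT. The library median in other epithelium was 0.23 with 2 higher, against 9.96% of genes, and 0 were lower in secretory epithelium, against 11.5%. Thinned to 1000 UMIs, the library median in other epithelium was 0.22 with 1 higher, against 9.77% of genes. In secretory epithelium 2 were higher and 0 lower, against 17.4% and 11.4%, and in fibroblasts 1 was lower, against 9.77%. With no cell filter, 1 was higher in other epithelium, against 5.88% of genes, and 1 lower in fibroblasts, against 8.63%. At a resolution of 0.5, 1 was higher in other epithelium, against 5.82% of genes, and 2 higher and 2 lower in secretory epithelium, against 13.4% and 21.9%. At a resolution of 2, 3 were higher in secretory epithelium, against 11.5%. Of the alternatives added after seeing the data, ratios relative to genes of like span gave plasma medians of 2.23 and 2.44 against B cells. The fibroblast median was 0.32 in the library labelled WT with 9 members higher, against 23.4% of genes. Between the libraries 1 was higher in other epithelium, 2 in secretory epithelium and 5 in plasma cells, against 7.15%, 10.7% and 25.1%. Leaving out the epithelial cluster led by mitochondrial genes gave 2 higher in fibroblasts against other epithelium, against 20.7% of genes. Counting the Ly6d- and Duoxa2-led cluster as other epithelium gave 1 higher there between the libraries, against 5.94%. The cause of these moves was not tested.

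No paired analysis was possible because each group is 1 library, and for the same reason none was left out. Differences between the libraries include whatever differed between the pools, their dissociation, loading and depth, which cannot be told apart from genotype. Members with few UMIs (Trib3, Chac1, Derl2 and Ddit3 in plasma cells) are limited by depth.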

Other observations

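Secretory epithelium was not uniform in these genes. Split further at a resolution of 0.5, it gave 5 subclusters, and the members' share of UMIs ran from 0.373% to 0.784%. The highest share, 0.784% and 0.779%, was in the subcluster led by Retnlb, Agr2 and Spink4 together with haemoglobin genes, from 20 and 79 cells with median depths of 11405 and 12240 UMIs. The subcluster led by defensin genes and Lyz1, which mark Paneth cells, had 0.602% and 0.663%, from 19 and 50 cells. The lowest, 0.428% and 0.373%, was in the subcluster led by Prap1 and Clca1, from 111 and 105 cells with median depths of 1060 and 1339 UMIs. The subcluster with the lowest share was also the shallowest, and the part of depth was not tested. Ern1, Eif2ak3 and Atf6 were not higher than in other epithelium in every subcluster. In the Retnlb-led one Ern1 was at 16.4 and 32.1 CPM, Eif2ak3 at 85.5 and 55.7 and Atf6 at 36.2 and 38.7. Other epithelium had 63.0 and 43.2, 80.9 and 60.4, and 53.6 and 39.9 in the same order. The subcluster led by Ighm and Scin had 195 and 192, 323 and 320, and 145 and 180. Ern2 was above its level in other epithelium in all 5.

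Within other epithelium, the cluster led by Car1, Aqp8 and Slc26a3, genes of mature absorptive colonocytes, had a members' share of 0.261% and 0.25%, and the cluster led by mitochondrial genes 0.237% and 0.260%. The cluster led by Nkd1 and Wif1 had 0.386% and 0.405%, and that led by Htr4 and Cftr 0.35% and 0.436%.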
